A study of Mus musculus with 35 samples.

Results

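The loci of the inducible effector enzyme genes Ptgs2, Nos2, Irg1 and Sod2 and of the adhesion molecule gene Icam1 were followed through lists of genomic regions from chromatin immunoprecipitation followed by sequencing (ChIP-seq) of mouse macrophages. Their members were all regions up to 100 kb wide that overlapped 1 of 5 windows of the mouse genome build mm9, whatever the target and time. The windows were chr1:151920000-151980000 for Ptgs2, chr11:78710000-78790000 for Nos2, chr14:103420000-103480000 for Irg1, chr17:13185000-13225000 for Sod2 and chr9:20805000-20845000 for Icam1. They held 317 of the 250088 listed regions, of which 233211 were up to 100 kb wide. Irg1 had 147 of them, Icam1 71, Sod2 48, Nos2 35 and Ptgs2 16.

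All 35 libraries came from wild type bone marrow macrophages of female C57BL/6 mice aged 8 to 12 weeks, either stimulated with lipopolysaccharide (LPS, from the outer membrane of Gram-negative bacteria) or unstimulated. The NF-κB subunit p50 was profiled in 4 libraries at 60 min of LPS and in 3 unstimulated ones, and the subunit p65 in 2 libraries at 60 min, 2 at 120 min and 1 unstimulated. ATF3 had 3 libraries at 240 min of LPS and no unstimulated one. Acetylated histone H4 (H4ac) had 2 libraries each at 60, 120 and 240 min and 2 unstimulated. RNA polymerase II (Pol II) had 2 at 60, 1 at 120, 2 at 240 and 1 at 360 min, and 1 unstimulated. Histone H3 trimethylated at lysine 27 (H3K27me3) had 1 library each at 120, 240 and 480 min, 1 unstimulated, and 1 whose label says 480 min while its title says 60 min with a 7 h delay. Replicates are named by the letter in their title (A, B, C, D or X). Nothing in the labels ties a letter to an animal or a culture, so the spread behind each p-value is that of these libraries and may be technical.

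Prostaglandin-endoperoxide synthase, also called COX-2, is encoded by Ptgs2 and makes the precursor of the prostaglandins. Nos2 encodes the inducible nitric oxide synthase, Irg1 (Acod1 in RefSeq) the enzyme that makes itaconate from cis-aconitate, and Sod2 the mitochondrial superoxide dismutase. Icam1 encodes a surface protein that binds leukocyte integrins such as LFA-1. In macrophages, LPS acts through Toll-like receptor signalling, which frees NF-κB dimers such as p50 with p65 to enter the nucleus. ATF3 is a stress-induced factor of the ATF/CREB family, H4ac marks active chromatin, Pol II over the length of a gene accompanies transcription, and H3K27me3 is laid down by Polycomb repressive complexes.

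The stretches just before the annotated starts of Irg1, Icam1 and Sod2 are printed because p50, p65, H4ac or Pol II regions were listed in their windows and because each holds at least 1 of the motifs searched. They are the 250 bases before the RefSeq start on the plus strand of GRCm38.p6, a later build than that of the lists, at chr14:103046762-103047011, chr9:21015690-21015939 and chr17:13007589-13007838. Of the 5 genes, 4 matched an entry of the RefSeq promoter table, and Nos2 is named only. Capitals mark GGAAATTCC, TATAAA or the NF-κB consensus.
Irg1: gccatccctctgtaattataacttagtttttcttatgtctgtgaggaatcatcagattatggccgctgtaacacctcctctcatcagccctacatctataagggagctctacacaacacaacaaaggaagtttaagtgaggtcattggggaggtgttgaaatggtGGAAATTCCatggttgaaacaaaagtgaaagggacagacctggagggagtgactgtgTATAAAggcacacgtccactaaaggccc
Icam1: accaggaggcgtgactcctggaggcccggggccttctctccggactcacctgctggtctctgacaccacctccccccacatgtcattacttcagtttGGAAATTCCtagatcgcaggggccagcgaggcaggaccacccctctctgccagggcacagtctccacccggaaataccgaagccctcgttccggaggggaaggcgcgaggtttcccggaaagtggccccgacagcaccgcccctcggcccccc
Sod2: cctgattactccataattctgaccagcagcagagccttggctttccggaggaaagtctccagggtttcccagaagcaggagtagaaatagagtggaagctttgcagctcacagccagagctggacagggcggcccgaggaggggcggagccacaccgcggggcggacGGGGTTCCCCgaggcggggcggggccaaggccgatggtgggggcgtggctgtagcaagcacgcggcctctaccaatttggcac

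The motifs were searched on both strands, and no 2 matches of different motifs overlapped. GGAAATTCC, an NF-κB-like sequence chosen after the promoters were seen, stood at -85 to -77 from the start of Irg1 and at -153 to -145 from that of Icam1. It occurred in 0.286% of 32851 promoter stretches of the same length. The NF-κB consensus stood at -83 to -74 in Sod2 and in 7.25% of all promoters. TATAAA, the core of a TATA box, stood at -28 to -23 in Irg1 and in 12.4% of all promoters. Neither TGACGTCA (1.55% of all promoters), a site of the ATF/CREB family, nor TGANTCA (6.75%), a site of AP-1 factors, was found in these windows, and the stretch of Ptgs2 held none of the 5 motifs. Irg1 had 2 CG dinucleotides in its 250 bases, against a median of 6 over all promoters, while Ptgs2 had 13, Sod2 15 and Icam1 15. The GC content was 44.4% in Irg1, 61.6% in Ptgs2, 63.6% in Sod2 and 65.2% in Icam1, with a median of 52.4% over all promoters. These matches are descriptions of the letters.

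The lists differed in length, which bears on every count given here. They held 255 to 28522 regions, with 324 to 1378 for p50, 255 to 2285 for p65, 15256 to 28522 for H4ac and 2948 to 7728 for Pol II. The lists give no read counts, so depth is unknown, and a locus missing from a list is called not listed rather than unbound. In bulk chromatin a mark carried by fewer cells and a weaker mark in each cell cannot be told apart. The p50 LPS library of letter D was short, with 324 regions against 1118 to 1378 in the other 3 LPS libraries. Regions of the p65 libraries of letters A and C rarely touched H4ac (3.40% and 7.94% of their regions, against 64.2% to 81.6% in the X libraries), and ATF3 B and C did so in 8.91% and 8.86%, against 66.7% in ATF3 A. p65 and ATF3 results are therefore given by library. No mm9 annotation was used here, so regions near the edge of a window cannot be assigned between the gene and its neighbours.

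Each locus had its own set of targets. H4ac was listed at Irg1, Sod2 and Icam1 in 8 of 8 lists, at Ptgs2 in 7 and at Nos2 in 5. Pol II was listed at Irg1 and Sod2 in 7 of 7 lists, at Ptgs2 and Icam1 in 6 and at Nos2 in 5. H3K27me3 was listed in 5 of 5 lists at both Nos2 and Icam1, in 1 at Irg1 and in none at Ptgs2 or Sod2. p50 was listed at Nos2 and Icam1 in 3 of 7 lists and at Irg1 in 1. p65 was listed at Irg1 in 3 of 5 lists and at Ptgs2 and Icam1 in 2, and ATF3 at Irg1 in 1 of 3. For scale, a single list held 0.430% to 3.22% of genome tiles of 40 to 80 kb for p50, 14.6% to 30.3% for H4ac, 3.34% to 12.4% for Pol II, 3.82% to 10.5% for H3K27me3, 0.283% to 6.40% for p65 and 1.83% to 8.49% for ATF3.

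**Figure D1:**
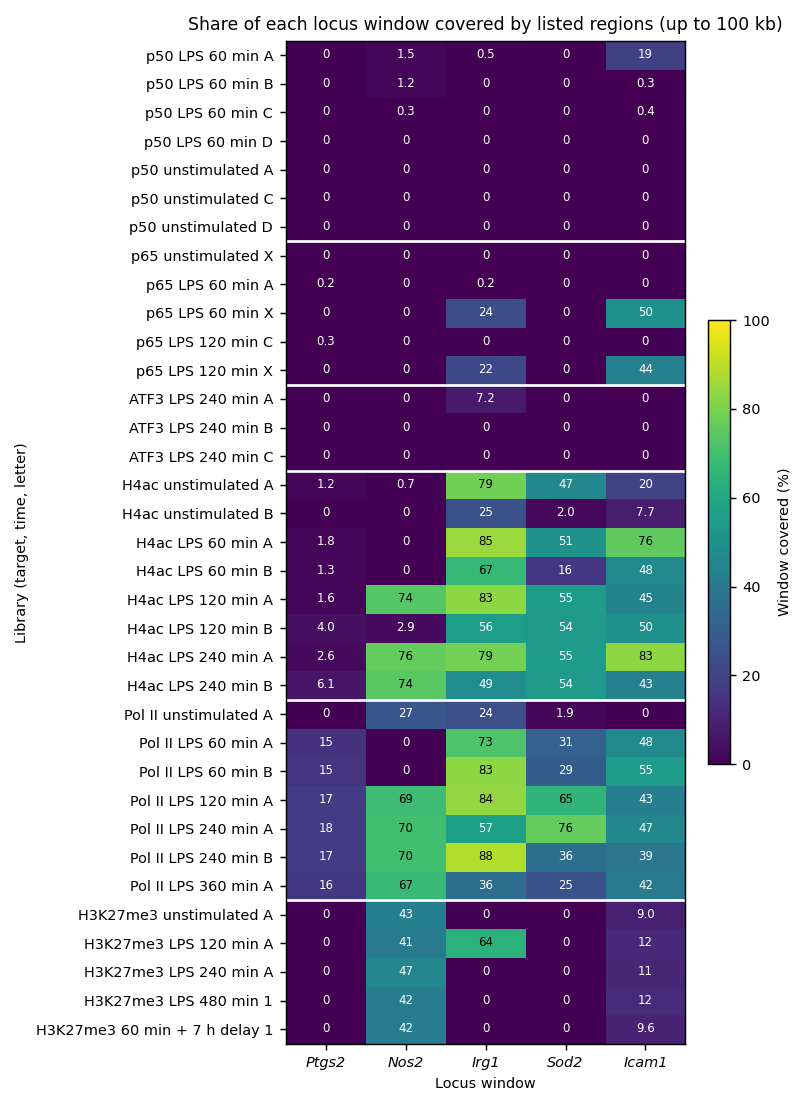
Share of each window (percent, colour and printed value) covered by listed regions up to 100 kb wide, with 1 row per library grouped by target and 1 column per locus. Pol II covered none of the Ptgs2 and Icam1 windows in the unstimulated list, and the 5 H3K27me3 lists covered 41% to 47% of the Nos2 window.

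Covered base pairs inside a window gave 1 value per library for the comparison of LPS with no stimulation. For Pol II, every one of 6 LPS lists lay above the single unstimulated list at 4 of 5 loci, Nos2 being the exception. The same held for 4.17% of all 40-kb tiles with any Pol II cover, 4.56% of 60-kb tiles and 4.82% of 80-kb tiles. For H4ac, every one of 6 LPS lists lay above both unstimulated lists at 2 of 5 loci, Ptgs2 and Icam1, against 3.85% of 40-kb, 4.13% of 60-kb and 4.16% of 80-kb tiles. For p50, this was so at 0 of 5 loci, against 2.43%, 2.45% and 2.53% of tiles, as LPS D listed nothing at any of them. No test of these values could pass 0.05, since the smallest exact two-sided permutation p is 0.0571 for 4 against 3 libraries, 0.0714 for 6 against 2 and 0.286 for 6 against 1. Comparisons at different times share the same unstimulated lists.

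As merged regions, Pol II regions listed in every library of a time and absent without LPS, called gained, were found at Ptgs2 (chr1:151946161-151957140) and Icam1 (chr9:20819451-20838320) at each of 60, 120, 240 and 360 min. These were 2 of the 13 merged Pol II regions at the loci, where 7.08%, 10.2%, 8.63% and 6.67% of all merged Pol II regions were called gained at those times. Without LPS A the count was 6 at 60 min and 9 at 240 min. In the opposite direction 1 region, at Nos2, was called lost at 60 min, where 29.5% of all were. Of its 65190 bp the unstimulated list held a region of 29750 bp only, towards the right end. For p50, 2 of 3 merged regions at the loci were gained at 60 min, against 9.6% of all, and 0 were without LPS A, B or C, as the rule asks for 3 lists. None of 11 merged H4ac regions was gained, against 2.7% of all at 60 min, 3.85% at 120 min and 5.57% at 240 min. This count of 0 was 3 at each time when 50% of a merged region had to be covered, and 2, 3 and 3 without unstimulated A. None of 3 merged p65 regions was gained, against 0.023% at 60 min and 0.597% at 120 min. At 60 min 2 were without LPS X and 1 without LPS A, and at 120 min 1 was with either LPS library left out. As p65 regions were merged up to 10 kb only, this count leaves out the wide p65 X regions. These were 14140 and 13150 bp at Irg1 and 19170 and 17220 bp at Icam1, at 60 and 120 min.

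**Figure D2:**
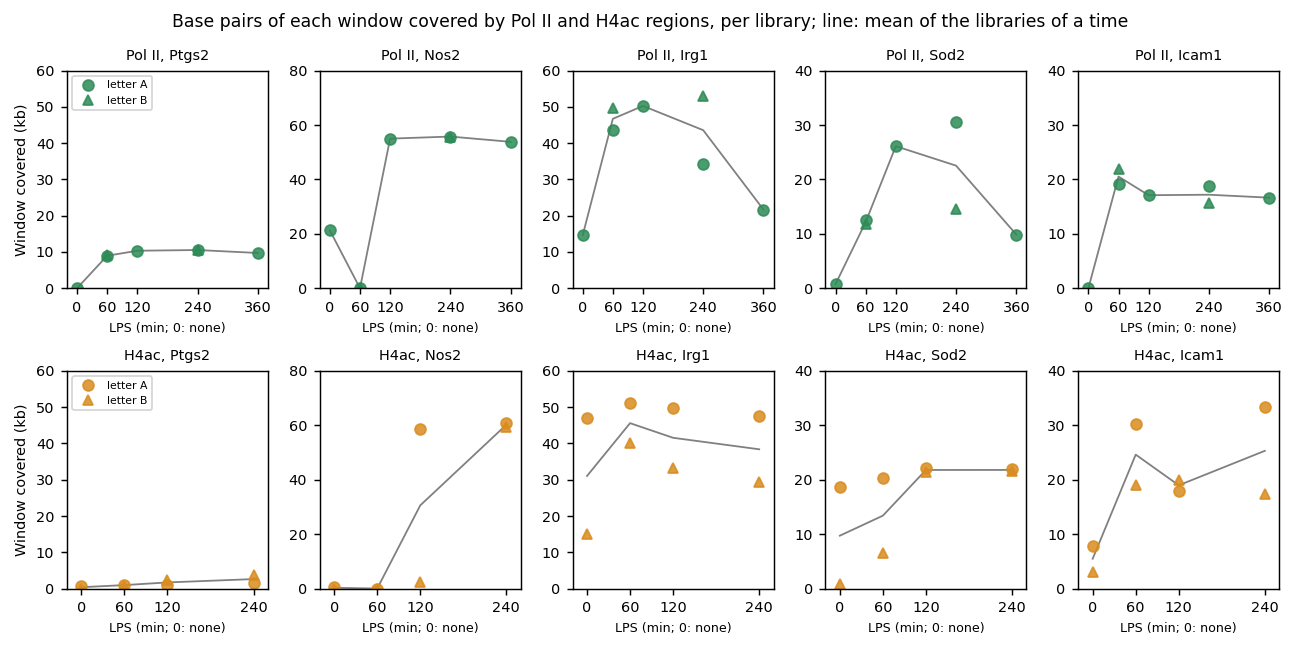
Base pairs covered (kb, vertical axis up to the window's width) by Pol II (upper row) and H4ac (lower row) at each locus against time of LPS in min, with 0 for no stimulation. Points are libraries (circle, letter A; triangle, letter B) and the line joins the means of each time. Pol II at Nos2 was at 0 at 60 min and between 53.8 and 55.8 kb from 120 min on.

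At Irg1, the itaconate enzyme, Pol II held the best-ranked region of the 5 loci in all 7 lists, the unstimulated one included. Rank within a list follows the authors' own score. The score also served to cut lists to their best-scored 50% or to equal length. With LPS, the best Irg1 region ranked 12 of 5519 and 9 of 6061 at 60 min, 6 of 4559 at 120 min, 3 of 5144 and 1 of 7728 at 240 min, and 4 of 2948 at 360 min. These regions lay between 25.2 and 42.4 kb from the left end of the window. In the unstimulated list the region over this stretch, at 26.7 to 30.9 kb, ranked 7341 of 7436. The best in the window, ranked 1264, lay right of the stretch, at 48.9 to 49.6 kb. First place in the unstimulated list rests on that region.

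Pol II covered 14.6 kb of the Irg1 window in the unstimulated list, 43.6 and 49.8 kb at 60 min, 50.3 kb at 120 min, 34.1 and 53.0 kb at 240 min and 21.7 kb at 360 min. All LPS values were above the unstimulated one, and the 360 min value was the lowest of them. The LPS lists averaged 42.1 ± 12.1 kb (SD, n = 6) and the unstimulated list had 14.6 kb (exact two-sided permutation test, p = 0.286, the smallest it can give). Counted over regions up to 10 kb alone, the difference turned to -3448 bp.

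H4ac at Irg1 was listed with and without LPS. In all 6 LPS lists its best-ranked region lay either at 10.98 to 18.69 kb or at 25.0 to 28.9 kb from the left end of the window, with ranks from 62 of 17894 at 240 min B to 228 of 27235 at 240 min A. Irg1 had the best H4ac rank of the 5 loci in 8 of 8 lists, those without LPS included (1002 of 28522 in A and 2682 of 21058 in B). Without LPS these best regions lay elsewhere, at 48.5 to 50.1 kb in A and 48.6 to 49.3 kb in B. At the places named for LPS, the best ranks were 4955 in A and 3310 in B, against 3809 and 3543 at Icam1.

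The H4ac cover was 47.1 and 14.9 kb in unstimulated A and B, 51.0 and 40.2 kb at 60 min, 49.8 and 33.3 kb at 120 min and 47.5 and 29.3 kb at 240 min. The groups overlapped, as unstimulated A lay above 3 of the LPS libraries. Much of its cover was 1 region of 37000 bp (rank 16775 of 28522) and 1 of 29080 bp that ran past the window (rank 28028). The mean was 41.9 ± 9.10 kb with LPS (n = 6) and 31.0 ± 22.8 kb without (SD, n = 2), which did not pass (exact permutation p = 0.286). Within letter A, which shares a title date apart from 240 min, LPS averaged 49.5 kb against 47.1 kb, and within letter B, all of 1 date, 34.2 kb against 14.9 kb. Without unstimulated B the difference turned to -5277 bp and with all widths to -5567 bp, against 10823 bp as first counted. It was 21465 bp with regions up to 10 kb and 17968 bp with the best-scored 50% of each list, both at the smallest possible exact permutation p of 0.0714.

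p65, the activating NF-κB subunit, was listed over the same stretch of Irg1 as Pol II. p65 X held 1 region at 60 min (chr14:103445261-103459400, rank 50 of 782) and 1 at 120 min (chr14:103445781-103458930, rank 71 of 814), and none without LPS. Same-time Pol II covered 94.1% and 92.0% of the p65 cover at 60 min (libraries A and B) and 97.6% at 120 min. The shared part made up 30.5%, 26.1% and 25.5% of the Pol II cover of the window. The share over all p65 regions of the genome is not given here. p65 A at 60 min held only a 130 bp region near the end of its list (rank 2245 of 2285), and p65 C at 120 min held none.

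Left of this stretch, 2 narrow sites at Irg1 were listed for several targets. They were chosen after their values were seen, as the narrow regions of ATF3 A at 240 min, at chr14:103432281-103432930 and chr14:103436321-103436580. Their right ends lay 13.2 and 9.52 kb left of the median start of the Pol II stretch. ATF3 B and C listed neither. H4ac regions up to 10 kb overlapped both sites in 8 of 8 lists. Pol II regions up to 10 kb overlapped the left site in 6 of 6 LPS lists and the right site in 5 of 6, and neither in the unstimulated list. p50 was listed at the right site in LPS A alone, as a 280 bp region (chr14:103436331-103436610). The mean p50 cover was 0.0700 ± 0.140 kb with LPS (n = 4) and 0 without (n = 3, exact permutation p = 1), and it was 0 without LPS A. H3K27me3 was listed at Irg1 at 120 min only, as a 55060 bp region that reached into the window from its left side.

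**Figure D3:**
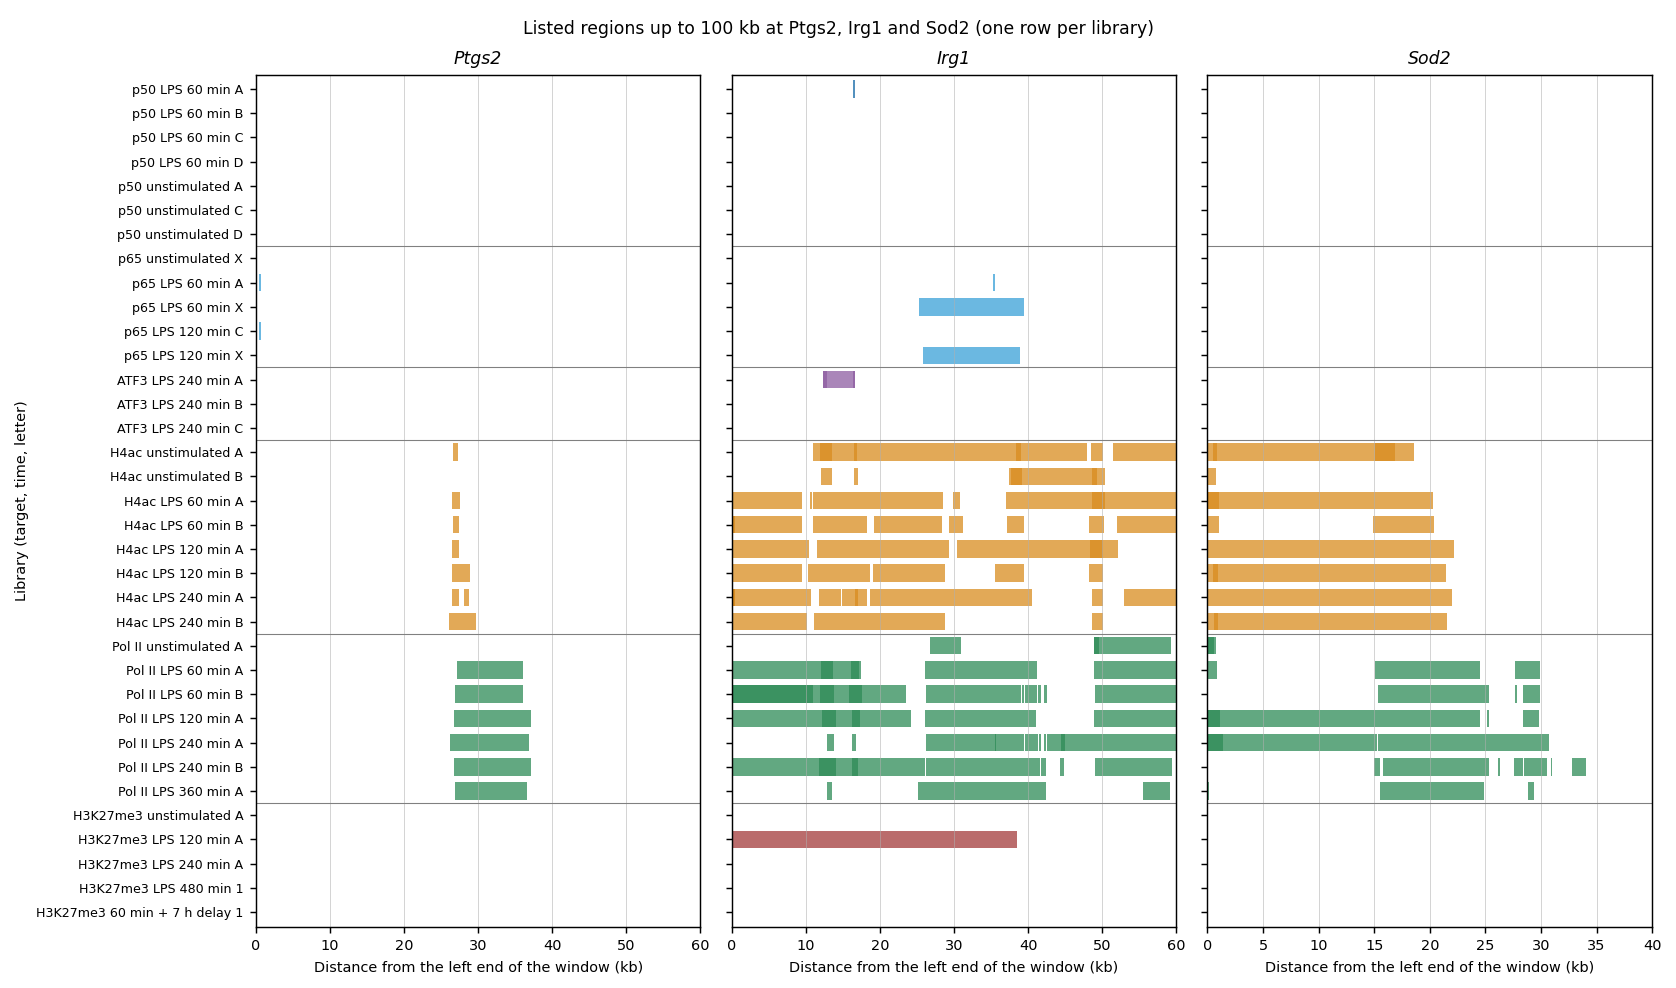
Listed regions up to 100 kb at Ptgs2, Irg1 and Sod2, with distance from the left end of the window (kb) across and 1 row per library, coloured by target; darker parts are overlapping regions of 1 list. At Ptgs2 the 6 Pol II LPS lists share a stretch of 8.79 to 10.66 kb that begins at the H4ac region, and the unstimulated row is empty.

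Nos2, the inducible nitric oxide synthase, was the only one of the 5 loci with no Pol II region in either list at 60 min of LPS. The cover was 21.3 kb in the unstimulated list, 0 and 0 kb at 60 min, 55.0 kb at 120 min, 55.8 and 55.8 kb at 240 min and 53.8 kb at 360 min. From 120 min on, the regions began 24.2 to 25.0 kb from the left end of the window. The unstimulated list held 1 region only, at 58.7 to 88.5 kb, ranked 6254 of 7436. It ran past the right end of the window, on the side of the neighbouring gene Lgals9. Without an mm9 annotation it cannot be assigned to Nos2 or to Lgals9, and nor can the LPS cover at that end. Counted base by base, the 120, 240 and 360 min lists added 33.7, 34.5 and 34.6 kb to the unstimulated cover, where 15.8%, 15.6% and 5.33% of all Pol II bases were gained at those times, and the 60 min lists added none (15.1%). The LPS mean was 36.7 ± 28.5 kb (SD, n = 6) against 21.3 kb in the unstimulated list (exact permutation p = 0.857). The difference of 15455 bp was 4060 bp with regions up to 10 kb and 35128 bp with the best-scored 50% of each list.

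H4ac at Nos2 was also unlisted at 60 min and listed at 120 and 240 min. The cover was 0.540 and 0 kb in unstimulated A and B, 0 and 0 kb at 60 min, 58.8 and 2.35 kb at 120 min and 61.0 and 59.4 kb at 240 min. At 120 min the lists differed widely, as only A held a wide region (29.4 to 89.3 kb from the left end), while both covered 23.0 to 25.4 kb. The wide regions stood near the end of their lists, at ranks 22059 of 23028 at 120 min A, 23887 of 27235 at 240 min A and 17315 of 17894 at 240 min B. The mean was 30.3 ± 32.3 kb with LPS (n = 6) and 0.270 ± 0.382 kb without (SD, n = 2, exact permutation p = 0.429). Within letter A it was 39.9 kb against 0.540 kb and within letter B 20.6 kb against 0 kb. Base by base, the H4ac cover gained in both lists was 0 kb at 60 min, 2.35 kb at 120 min and 58.9 kb at 240 min, where 5.2%, 6.22% and 7.17% of all H4ac bases were gained. Without LPS 120 min B the 120 min value was 58260 bp. The LPS minus unstimulated difference of 29993 bp was 4270 bp with regions up to 10 kb, 4148 bp with the best-scored 50% of each list and 4540 bp with lists of equal length, and turned to -26667 bp with all widths.

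p50 was listed at Nos2 at 60 min, when neither Pol II nor H4ac was. A stretch of 120 bp (chr11:78734121-78734240) was common to the LPS 60 min lists A, B and C. Those lists covered 1.22, 0.940 and 0.240 kb, LPS D covered none, and unstimulated A, C and D covered none. The mean was 0.600 ± 0.574 kb with LPS (n = 4) and 0 kb without (n = 3, exact permutation p = 0.229). Within a letter, the LPS minus unstimulated difference was 1.22 kb in A, 0.240 kb in C and 0 kb in D, and without LPS A the mean difference was 393 bp. The difference of 600 bp was 270 bp with the best-scored 50% of each list, 67.5 bp with lists of equal length and 40235 bp with all widths. The common p50 stretch ended where Pol II began at 240 min (chr11:78734241 in A and chr11:78734231 in B). Single p50 regions ran further, to chr11:78734420 in A, chr11:78734250 in B and chr11:78734330 in C. Pol II began at chr11:78735001 at 120 min and at chr11:78734161 at 360 min. H4ac overlapped the common p50 stretch in 0 of 2 lists without LPS, 0 of 2 at 60 min, 2 of 2 at 120 min and 2 of 2 at 240 min. Pol II overlapped it in none of the lists up to 120 min, in 1 of 2 at 240 min and in the 1 at 360 min. No p65, ATF3 or H3K27me3 list overlapped it.

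H3K27me3, the Polycomb mark, was listed at Nos2 in all 5 of its lists, over the stretch where Pol II was listed from 120 min on. The cover was 34.5 kb in the unstimulated list, 33.2 kb at 120 min, 37.2 kb at 240 min, 33.8 kb at 480 min and 33.9 kb in the library with the 7 h delay. Each was 1 region that began 25.2 to 26.3 kb and ended 58.5 to 62.4 kb from the left end of the window. At 120 and 240 min, 100% of the H3K27me3 cover lay inside same-time Pol II cover, of which it made up 60.3% at 120 min and 66.8% and 66.7% at 240 min (A and B). In the genome, all 5 H3K27me3 lists held 4.21% of 80-kb tiles. Of the 1187 tiles with Pol II in every list from 120 to 360 min, all 5 H3K27me3 lists held 120 (10.1%). A tile counted if it held any cover of each, overlapping or not, so this share does not measure overlap as given for Nos2. Whether both lay on the same chromosomes or in different cells cannot be told apart in bulk lists.

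**Figure D4:**
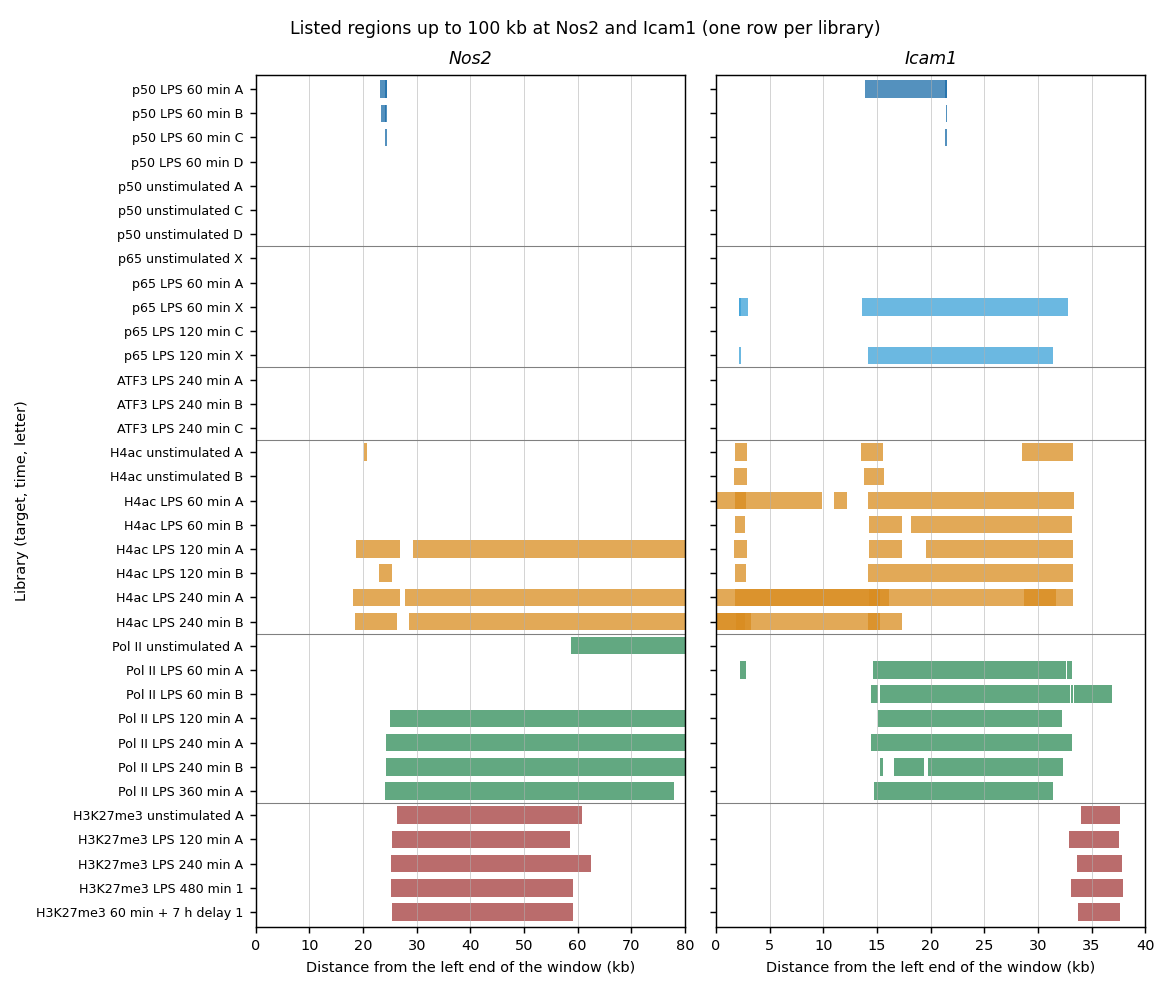
Listed regions up to 100 kb at Nos2 and Icam1, with distance from the left end of the window (kb) across and 1 row per library, coloured by target; darker parts are overlapping regions of 1 list. At Nos2 the H3K27me3 rows lie within the Pol II rows of 120 to 360 min, while at Icam1 they begin at 32.9 to 34.0 kb.

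At Ptgs2, the prostaglandin enzyme, Pol II was listed with LPS and not without. Each of the 6 LPS lists held 1 region, of 8.79 and 9.13 kb at 60 min, 10.3 kb at 120 min, 10.7 and 10.4 kb at 240 min and 9.72 kb at 360 min, against 0 kb in the unstimulated list. The LPS mean was 9.84 ± 0.759 kb (SD, n = 6, exact permutation p = 0.286). The regions began between chr1:151946161 and chr1:151947211. Among the 5 loci, Ptgs2 had the lowest Pol II rank of the listed loci at 60 min (1844 of 5519 in A and 1126 of 6061 in B) and at 120 min (679 of 4559). At 240 min it was second to Irg1 in both lists (58 of 5144 and 59 of 7728), and at 360 min it came after Irg1 and Nos2 (117 of 2948).

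H4ac at Ptgs2 was a narrow region at the left end of the Pol II stretch. Its cover was 0.730 and 0 kb in unstimulated A and B, 1.10 and 0.800 kb at 60 min, 0.970 and 2.40 kb at 120 min and 1.55 and 3.66 kb at 240 min. The 6 LPS values did not overlap the 2 unstimulated ones, though 60 min B (0.800 kb) was close to unstimulated A (0.730 kb). The mean was 1.75 ± 1.10 kb with LPS (n = 6) and 0.365 ± 0.516 kb without (SD, n = 2, exact permutation p = 0.0714, the smallest possible). Within letter A it was 1.21 kb against 0.730 kb, and within letter B 2.29 kb against 0 kb. p65 was listed near the left end of the window in A at 60 min (130 bp) and C at 120 min (170 bp), and in no X library. p50, ATF3 and H3K27me3 were not listed at Ptgs2 in any list.

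Sod2, the mitochondrial superoxide dismutase, had H4ac and Pol II regions only. Pol II covered 0.750 kb of the window in the unstimulated list, 12.5 and 11.8 kb at 60 min, 26.1 kb at 120 min, 30.6 and 14.5 kb at 240 min and 9.87 kb at 360 min. All LPS values were above the unstimulated one, which lay at the left edge of the window, on the side of the neighbouring gene Wtap. The mean was 17.6 ± 8.60 kb with LPS (n = 6) against 0.750 kb (exact permutation p = 0.286). In each LPS list the best region began 15.0 to 15.8 kb and ended 24.5 to 25.3 kb from the left end, with ranks between 123 of 7728 at 240 min B and 257 of 4559 at 120 min. At 120 min and in 240 min A, further regions of 16870 and 44230 bp lay left of it. With all widths the difference turned to -6727 bp, and the unstimulated list then held a region wider than 100 kb there.

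H4ac at Sod2 covered 18.6 and 0.810 kb in unstimulated A and B, 20.3 and 6.46 kb at 60 min, 22.1 and 21.5 kb at 120 min and 22.0 and 21.6 kb at 240 min. Unstimulated A lay above 60 min B, so the groups overlapped. Its cover lay in 1 region of 96000 bp that reached into the window (rank 22558 of 28522). The mean was 19.0 ± 6.18 kb with LPS (n = 6) and 9.72 ± 12.6 kb without (SD, n = 2, exact permutation p = 0.143). Within letter A it was 21.5 kb against 18.6 kb and within letter B 16.5 kb against 0.810 kb, and without unstimulated B the difference was 377 bp, against 18187 bp without unstimulated A. With all widths it turned to -5658 bp. With regions up to 10 kb it was 5457 bp, with the best-scored 50% of each list 6402 bp and with lists of equal length 8880 bp, each at the smallest possible exact permutation p of 0.0714. At 60 min 1.71 kb was held in both LPS lists and in neither unstimulated one (chr17:13203621-13205330), 2.83 kb at 120 min and 2.94 kb at 240 min, where 5.2%, 6.22% and 7.17% of all H4ac bases were gained. Without unstimulated A these values were 5630, 20640 and 20750 bp.

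Icam1, the adhesion molecule, was listed at 60 min of LPS for p50 in 3 of 4 lists, p65 in 1 of 2 and Pol II in 2 of 2. There is no later p50 library and no p65 library after 120 min. Pol II covered 0 kb of the window in the unstimulated list, 19.1 and 22.0 kb at 60 min, 17.1 kb at 120 min, 18.7 and 15.7 kb at 240 min and 16.65 kb at 360 min. The mean was 18.2 ± 2.26 kb with LPS (SD, n = 6) against 0 kb (exact permutation p = 0.286). With all widths the difference turned to -21147 bp, and the unstimulated list then held a region wider than 100 kb over the window. The place of Icam1 among the loci was opposite to that of Ptgs2. It was second to Irg1 at 60 min (17 of 5519 in A and 11 of 6061 in B) and at 120 min (31 of 4559), and last of the 5 at 240 min (744 of 5144 and 620 of 7728) and 360 min (549 of 2948).

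**Figure D5:**
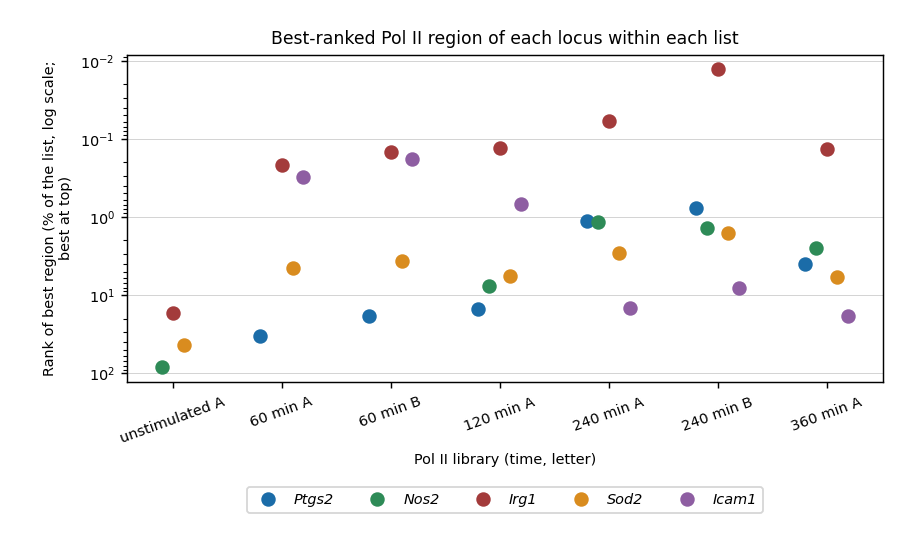
Rank of the best Pol II region of each locus as a percent of the list (log axis, best at the top) for each Pol II library in order of time; loci not listed have no point. The lists differ in length, so only the order within a library is read: Icam1 lies above Ptgs2 in the 3 libraries at 60 and 120 min and below it in the 3 at 240 and 360 min.

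p50 at Icam1 shared 100 bp (chr9:20826401-20826500) among LPS A, B and C, inside the Pol II stretch. The cover was 7.61, 0.120 and 0.160 kb in LPS A, B and C and 0 in LPS D, against 0 in unstimulated A, C and D. The 7.61 kb in A was 1 region near the end of its list (rank 1364 of 1378). It held a narrow region of 130 bp (rank 143). The mean was 1.97 ± 3.76 kb with LPS (n = 4) and 0 kb without (SD, n = 3, exact permutation p = 0.229), and without LPS A the difference was 93.3 bp. It was 72.5 bp with the best-scored 50% of each list and 32.5 bp with lists of equal length. Within a letter the difference was 7.61 kb in A, 0.160 kb in C and 0 kb in D. The p50 stretch was overlapped by p65 X at 60 and at 120 min, by H4ac in 0 of 2 lists without LPS, 2 of 2 at 60 and at 120 min and 1 of 2 at 240 min, and by Pol II in 6 of 6 LPS lists and not in the unstimulated one.

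p65 X held regions at Icam1 at 13.6 to 32.8 kb from the left end at 60 min (rank 111 of 782) and at 14.2 to 31.4 kb at 120 min (rank 221 of 814), and none without LPS. Same-time Pol II covered 93.2% and 90.0% of the p65 cover at 60 min and 93.6% at 120 min. The shared part made up 97.9%, 82.0% and 95.4% of the Pol II cover of the window. p65 X also held a narrow site 2.17 to 2.31 kb from the left end, its best-ranked at Icam1 at 60 min (rank 61 of 782), where H4ac was listed in 8 of 8 lists and Pol II in 60 min A alone. That site lies on the side of the neighbouring gene Mrpl4. p65 A and C held no region at Icam1.

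H4ac at Icam1 covered 7.89 and 3.07 kb in unstimulated A and B, 30.2 and 19.0 kb at 60 min, 17.93 and 20.03 kb at 120 min and 33.3 and 17.4 kb at 240 min. The 6 LPS values did not overlap the 2 unstimulated ones. The mean was 23.0 ± 6.93 kb with LPS (n = 6) and 5.48 ± 3.41 kb without (SD, n = 2, exact permutation p = 0.0714, the smallest possible). Within letter A it was 27.1 kb against 7.89 kb, and within letter B 18.8 kb against 3.07 kb. With regions up to 10 kb alone the difference turned to -503 bp. H3K27me3 covered 3.59 kb in the unstimulated list, 4.61 kb at 120 min, 4.23 kb at 240 min, 4.85 kb at 480 min and 3.84 kb in the library with the 7 h delay. These regions ended 37.5 to 37.9 kb from the left end, on the side of the neighbouring genes Icam4 and Icam5, and all 5 H3K27me3 lists held 2.67% of 40-kb tiles.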

How the data were processed

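Each library had 1 deposited list of regions with no header, holding a position, a scale number and a score. The score is the authors' own, as deposited. For its formula, the aligner and the region caller: not given in the sources used here. The build is mm9, per the submitters' processing notes. Chromatin was fixed, sonicated, precipitated and sequenced from single ends, per the labels' protocols. The files hold no read counts, so depth is unknown.

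Windows were taken as half-open intervals, and an overlap of 1 bp counted. Coordinates are 1-based. For each library and window, base pairs covered by regions up to 100 kb were counted once each, and the means of LPS and unstimulated libraries were set against each other in exact permutation tests (two-sided). Regions were merged across the libraries of a target, up to 10 kb wide for p50, p65 and H4ac and up to 100 kb for Pol II. Gained p50 regions were held by 3 or more LPS lists and by none of the unstimulated ones. For the other targets, gained meant held by every list of a time and by none without LPS, and lost meant the reverse. The same calls were also made in bins of 10 bp with regions up to 100 kb, a choice made after the data were seen. The genome was cut into tiles of 40, 60 and 80 kb for the background. Pol II regions of at most 30 kb with gaps up to 500 bp were joined to give the stretch of a locus.

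The members, the windows and the lists were chosen with earlier results of these data known. By a rule written with them, all 5 members are named, with the 3 genome tiles of the same width whose cover over the 35 libraries correlated best with each member. Lists of pathway genes and of cell type markers were not used here, as they need an mm9 annotation. Neighbouring genes come from the order of protein-coding genes in RefSeq GRCm38.p6. Neighbours are named for Nos2, Sod2 and Icam1 only. Alternatives changed the width limit, the overlap, the share of each list used, the window width and the libraries. The counting rules were tested on simulated data. Python 3.11.15, numpy 2.4.6, pandas 2.3.3 and matplotlib 3.10.9 were used.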

Additional observations from a re-analysis of the deposited data

Results flagged for a closer look

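Among the 4 p50 libraries at 60 min of LPS, letter A stood apart from the other 3 at 2 loci by Dixon's test, with 280 bp covered at Irg1 and 7610 bp at Icam1. At Irg1 the other 3 covered 0 bp, and at Icam1 they covered 120, 160 and 0 bp. The 7610 bp region of A stood near the end of its list (rank 1364 of 1378). With the other 3 at 0 bp, any region listed in the fourth would stand apart at Irg1, so the rate of about 1 in 20 groups by chance does not apply there.

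At Nos2 the Pol II cover at 60 min lay below that of the unstimulated library in both lists, while at later times every list lay above it. The unstimulated cover was 1 region at the right end of the window (58.7 to 88.5 kb from the left end, rank 6254 of 7436). The 21.27 kb not listed at 60 min lay there only. The mean cover was higher at 120 min than at 60 min by 55000 bp, at 240 min by 55765 bp and at 360 min by 53820 bp. The difference between the times was not tested.

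Regions wider than 100 kb are not members. They were listed over some windows with LPS and not without, and over others also or only without LPS. For p50 they covered Ptgs2 in 2 of 4 LPS lists and Nos2 in 2 of 4, with widths from 5.02 to 72.2 Mb. For Pol II they covered Ptgs2 in 3 of 6 LPS lists (2.68 to 24.3 Mb) and Irg1 in 4 of 6 (0.133 to 8.19 Mb). For H3K27me3 they covered Ptgs2 in 3 of 4 LPS lists (35.3 to 35.4 Mb). In contrast, H4ac ones covered Sod2 in 2 of 2 unstimulated and 0 of 6 LPS lists, and Nos2 in 2 of 2 and 4 of 6. Pol II ones covered Sod2 and Icam1 in the 1 unstimulated list and in 1 of 6 LPS lists each. p65 ones covered Ptgs2 and Nos2 in the 1 unstimulated list and in 2 of 4 LPS lists each.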

How the results depend on the processing

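Of 15 differences of covered base pairs between LPS and unstimulated libraries, the p50 ones at Ptgs2 and Sod2 were 0. Of the other 13, 153 of 164 alternative values kept their direction, though many moved in size, and no test could pass 0.05. With regions of all widths, which merge loci into regions of many Mb, the p50 difference at Ptgs2 became 30000 bp, and the H4ac differences became -26666.7 bp at Nos2, -5566.67 bp at Irg1 and -5658.33 bp at Sod2. The Pol II differences became -6726.67 bp at Sod2 and -21146.7 bp at Icam1. With regions up to 10 kb the H4ac difference at Icam1 became -503.333 bp and the Pol II difference at Irg1 -3448.33 bp, and 11 lists held Nos2 in place of 18. The p50 difference at Irg1 was 0 with the best-scored 50% of each list and with lists of equal length, the latter chosen after seeing the data, and those at Nos2 and Icam1 moved by over 1.5 times, with the values given beside them. The Pol II difference at Ptgs2 was 4607 bp with regions up to 10 kb and 34710 bp with all widths, and the H4ac difference there was 10772 bp with all widths.

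Leaving out 1 library at a time gave p50 differences of 393.333 to 800 bp at Nos2, 0 to 93.3333 bp at Irg1 and 93.3333 to 2630 bp at Icam1. It gave H4ac differences of 999 to 1746.67 bp at Ptgs2, 23848 to 36046 bp at Nos2, -5276.67 to 26923.3 bp at Irg1, 376.667 to 18186.7 bp at Sod2 and 15080 to 19900 bp at Icam1. Pol II differences stayed within 9680 to 10054 bp at Ptgs2, 11646 to 22800 bp at Nos2, 25302 to 31570 bp at Irg1, 14210 to 18350 bp at Sod2 and 17440 to 18706 bp at Icam1. The single unstimulated Pol II library could not be left out.

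The counts of gained merged regions were small and moved with the unit. For p50 the 2 became 1 with all widths, and 0 both with 50% of a merged region required to be covered and with the 50% of each list that scored best. Leaving out a library gave 0 to 2, at 0 without LPS A, B or C, since the rule asks for 3 lists. For H4ac the count of 0 at 60, 120 and 240 min became 3, 3 and 3 with 50% covered and 2, 2 and 3 with the best-scored 50%. It was 0 to 2, 0 to 3 and 0 to 3 with a library left out, the highest each time without unstimulated A. For Pol II the 2 became 5, 5 and 7 at 60, 120 and 240 min with regions up to 10 kb, and 0 at all 4 times with all widths. It became 4, 6 and 4 at 60, 120 and 240 min with 50% covered, and 4 at each of 120, 240 and 360 min with the best-scored 50%. With a library left out it was 3 to 6 at 60 min (6 without A) and 2 to 9 at 240 min (9 without A). The 1 lost Pol II region at 60 min was 0 with all widths, with 50% covered and with the best-scored 50%. For p65 at 60 min the 0 became 1 with regions up to 100 kb and 1 with all widths, and 1 to 2 with a library left out. At 120 min it was 1 with either LPS library left out. The causes were not tested.

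Letters are shared between conditions for p50 and H4ac. For p50 the correlations of deviations between conditions were 0.0745 for A, -0.0367 for C and 0.0912 for D, and 2 of 6 samples were closest to their own letter. For H4ac they were 0.119 to 0.239 over 2 letters. The same letter goes with the same title date between conditions, apart from H4ac 240 min A and p50 B, which has no unstimulated partner. What the date marks is not given in the sources used here, so whether the letters pair the samples was not settled. With the letter as a replicate block the p50 difference was 487 bp at Nos2, 93.3 bp at Irg1 and 2590 bp at Icam1, and the H4ac differences equalled the unblocked ones. The p50 count was 2 and the H4ac counts were 0 with the block, which changed no call.

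The lists bound what can be read. They have no read depth, lengths that differ by target and library, 1 unstimulated library each for Pol II, p65 and H3K27me3, and none for ATF3. The unstimulated Pol II library has a title date shared with no LPS library of Pol II, so date and stimulation cannot be told apart there. The same holds for p65 and H3K27me3.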

Other observations

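For each locus, the genome tile of the same width whose cover over the 35 libraries was most like it was found, over libraries that share targets and list lengths, as a description only. For Ptgs2 it was chr10:83040001-83100000 (Pearson's r = 0.984), followed by tiles on chromosomes 13 (r = 0.980) and 6 (r = 0.976). For Sod2 it was chr12:21320001-21360000 (r = 0.934), with the next at 0.918 and 0.912. For Icam1 it was chr16:84680001-84720000 (r = 0.901), with the next at 0.877 and 0.854 side by side on chromosome 6. For Irg1 it was chr16:25020001-25080000 (r = 0.890), with the next at 0.887 and 0.887. Nos2 had the least similar best tile, chr1:175520001-175600000 (r = 0.833), with the next at 0.806 and 0.765. No mm9 annotation was used to name the genes in these tiles.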
